A study of Mus musculus with 4 samples.

Results

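The genes described here encode the chaperones, folding enzymes and degradation factors of the endoplasmic reticulum (ER), together with the main regulators of the unfolded protein response. They are 34 genes, fixed as a list of symbols for ATF6- and XBP1-type ER chaperones, folding enzymes and ER-associated degradation, out of 48526 genes in the count tables, and all 34 were found by symbol. RNA-seq had been performed on wild-type (WT) R1 embryonic stem cells (ESCs), an established male mouse line, and on *Zfp296* CRISPR KO clone 2 R1 ESCs (KO2), with 2 biological replicates of each. KO2 is a single clone, made by transfecting R1 ESCs with Cas9 and a guide RNA against the first exon of *Zfp296* and selecting with puromycin, and WT and KO2 carry no other stated difference. Both were grown on gelatine with serum, LIF, PD0325901 and CHIR99021. ZFP296 is a zinc finger protein that binds the NuRD and SIN3A complexes, and the comparison asked whether the RNA of the ER folding machinery moves in its absence.

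Proteins that enter the ER are folded by lumenal chaperones and by enzymes that form disulfide bonds, and those that fail are pulled back to the cytosol and degraded. When unfolded proteins build up, the sensors ATF6, IRE1 and PERK signal to the nucleus. ATF6 and the spliced form of XBP1, made by IRE1, then raise chaperone and degradation genes, while PERK lowers translation and favours that of ATF4. Rapidly dividing ESCs depend on this machinery for their receptors, adhesion proteins and secreted ligands.

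Counts on genes summed to 2829914 and 4334499 for WT and to 7470907 and 7437294 for KO2, so that both KO2 libraries were the deeper ones. The targeted gene, *Zfp296*, had 11.6 and 7.33 CPM (counts scaled to the TMM-normalized size of each library) in WT and 52.8 and 37.7 CPM in KO2. By the quasi-likelihood test of edgeR, adjusted over all genes tested by the Benjamini-Hochberg method, its log2 fold change was 2.31 (standard error 0.28) at an adjusted p of 4.55e-05. Its RNA was thus higher in KO2, and since a count over the whole gene does not show a small edit in the first exon, it does not check the label. KO2 stands throughout for the libraries labelled so. The Y-linked *Ddx3y* had 0 and 1 counts in the WT libraries and 1979 and 2197 in the KO2 libraries. WT, although from a male line, was thus the group that lacked Y-linked RNA. This difference runs along with genotype and clone, so the design cannot tell them apart, and its part in the values below was not tested. All 10 ESC markers on a fixed list passed the filter on low counts, with sums of 6775 to 6892 CPM in WT and 6693 to 7014 CPM in KO2. *Sox2* alone among them was called (10%, compared to 5.64% of all tested genes), lower in KO2 (log2 fold change -0.79, standard error 0.10, adjusted p = 7.84e-05, edgeR). At an unadjusted p under 0.05, 3 of the 10 passed (30%, compared to 19.4% of all tested genes). Besides *Sox2* these were *Dppa5a* (0.35) and *Tfcp2l1* (0.23), both higher in KO2. In a list of primitive and parietal endoderm, which are secretory cells of the early embryo, 8 of 12 genes were tested and the sum was 562 to 612 CPM in WT and 518 to 568 CPM in KO2. *Lamb1* alone was called (12.5% of the 8, compared to the same 5.64%), lower in KO2 (log2 fold change -2.13). At an unadjusted p under 0.05, 2 of the 8 passed (25%), *Lamb1* and *Col4a1* (-0.33). The transcription factors *Gata6*, *Sox17*, *Sox7* and *Foxa2* were at or below 1.07 CPM in each library, *Gata4* reached 3.17 CPM and *Dab2* 5.22 CPM, and the matrix genes *Lama1* and *Sparc* stood at 173 to 235 CPM. A list of 8 fibroblast genes summed to 3.35 to 13.2 CPM in WT and 7.35 to 9.09 CPM in KO2, with *Dcn*, *Lum* and *Postn* at 0 in all 4 libraries.

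The list was also read at the level of sequence, because ATF6 and XBP1 act on ER genes through the ER stress response element (ERSE), in which CCAAT, bound by NF-Y, and CCACG, bound by ATF6 or XBP1, lie 9 bases apart. RefSeq promoter windows (GRCm38.p6, 250 bases before to 50 after the start) were matched for 28 of the 34 genes. CCAAT followed after 9 bases of any kind by CCACG, searched on both strands, occurred in the windows of 10 of these 28 genes (35.7%), compared to 37 of the 27025 genes with a window (0.137%). The 10 genes were *Hspa5*, *Hsp90b1*, *Calr*, *Canx*, *Pdia6*, *Dnajc3*, *Creld2*, *Syvn1*, *Ero1lb* and *Derl3*, with 11 matches in all since *Hsp90b1* had a pair. The matches ended 25 to 193 bases before the start site. They are printed here because the element was more frequent among the ER genes, a list drawn up around ATF6 and XBP1, than among all genes, although 18 of the 28 genes had no match. Each match is read 5′ to 3′ on the strand of its gene, in capitals and with up to 20 bases on each side. Only *Hspa5* and *Dnajc3* fell under the rule for printed promoters, and the others were added after their matches had been seen. In 6 matches the element runs in the direction of the gene, with CCAAT first.
Hspa5, chr2:34772005-34772063, plus strand: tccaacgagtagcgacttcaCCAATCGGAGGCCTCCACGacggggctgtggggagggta
Hsp90b1, chr10:86705618-86705676, minus strand: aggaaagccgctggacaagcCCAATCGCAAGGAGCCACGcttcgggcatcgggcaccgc
Canx, chr11:50325780-50325838, minus strand: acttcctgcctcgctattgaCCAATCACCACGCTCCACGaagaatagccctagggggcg
Pdia6, chr12:17266471-17266529, plus strand: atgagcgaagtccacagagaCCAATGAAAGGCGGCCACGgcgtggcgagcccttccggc
Dnajc3, chr14:118937807-118937865, plus strand: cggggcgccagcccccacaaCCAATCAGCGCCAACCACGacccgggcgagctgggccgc
Syvn1, chr19:6046512-6046570, plus strand: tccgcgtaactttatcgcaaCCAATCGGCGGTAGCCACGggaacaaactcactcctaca

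In the other 5 matches it runs against the gene, and CGTGG comes first.
Hsp90b1, chr10:86705513-86705571, minus strand: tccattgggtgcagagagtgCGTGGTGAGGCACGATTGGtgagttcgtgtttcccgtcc
Calr, chr8:84847055-84847113, minus strand: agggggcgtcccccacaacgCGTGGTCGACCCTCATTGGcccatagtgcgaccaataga
Creld2, chr15:88819500-88819558, plus strand: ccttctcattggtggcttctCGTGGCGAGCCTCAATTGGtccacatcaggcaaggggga
Ero1lb, chr13:12565662-12565720, plus strand: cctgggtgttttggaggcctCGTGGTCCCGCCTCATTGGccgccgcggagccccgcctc
Derl3, chr10:75893222-75893280, plus strand: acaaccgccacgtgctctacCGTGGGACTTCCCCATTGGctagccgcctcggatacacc

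The related element ERSE-II, searched on both strands as ATTGG and CCACG with 1 base between them, was found for *Dnajb11* and *Herpud1* (7.14% of the 28 genes, compared to 0.0444% of all genes with a window). That of *Dnajb11* lay after the start site and is not printed, and that of *Herpud1* ended 41 bases before it.
Herpud1, chr8:94386357-94386407, plus strand: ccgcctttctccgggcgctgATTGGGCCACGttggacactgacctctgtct

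On either strand, the core of the unfolded protein response element, TGACGTGG, occurred for none of the 28 genes and for 0.714% of all genes with a window. TGATGNAA, the core of the element read by ATF4, occurred for 1 of the 28 genes, *Herpud1*, and for 4.51% of all genes with a window. *Ero1l*, named Ero1a in RefSeq, had a window with none of the 4 elements. A match describes letters and is not by itself a binding site.

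The ER genes were abundant and, as a group, lay near their WT level in KO2. Together they held 0.883% and 0.906% of the counts on genes in WT and 0.943% and 0.913% in KO2. After TMM normalization their summed level was 9311 and 9281 CPM in WT, compared to 8938 and 9078 CPM in KO2. Both KO2 libraries thus lay above WT before this normalization and below WT after it, so the direction of the small shift depended on this step. All 34 passed the filter on low counts and were among the 12883 genes tested. With edgeR, 1 of the 34 genes (2.94%) was called, at an adjusted p under 0.05, compared to 5.64% of all tested genes. This gene, *Ero1l*, was lower in KO2, where 3.04% of all tested genes were called lower, and no ER gene was called higher, where 2.61% were. At an unadjusted p under 0.05, 0 ER genes were higher and 2 lower with edgeR (5.88%, compared to 19.4% of all tested genes). With DESeq2, 1 was higher and 3 were lower at that threshold, and *Ero1l* alone passed the adjustment, where 4.01% of all genes with an adjusted p did. The log2 fold changes had a median of 0.04, compared to 0.01 over all tested genes, with 18 above 0 and 16 below. Relative to the WT mean, the median log2 difference over the 34 genes was 0.03 in KO2 replicate 1 and -0.04 in KO2 replicate 2, so that the replicates lay on both sides of WT. The values of KO2 and WT did not overlap for 18 ER genes (52.9%), compared to 48.8% of all tested genes. Of these, 10 were higher and 8 lower in KO2, compared to 25.4% and 23.4% of all tested genes. The replicates may come from parallel dishes of the same culture, and p-values then measure only the spread between these samples.

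**Figure D1:**
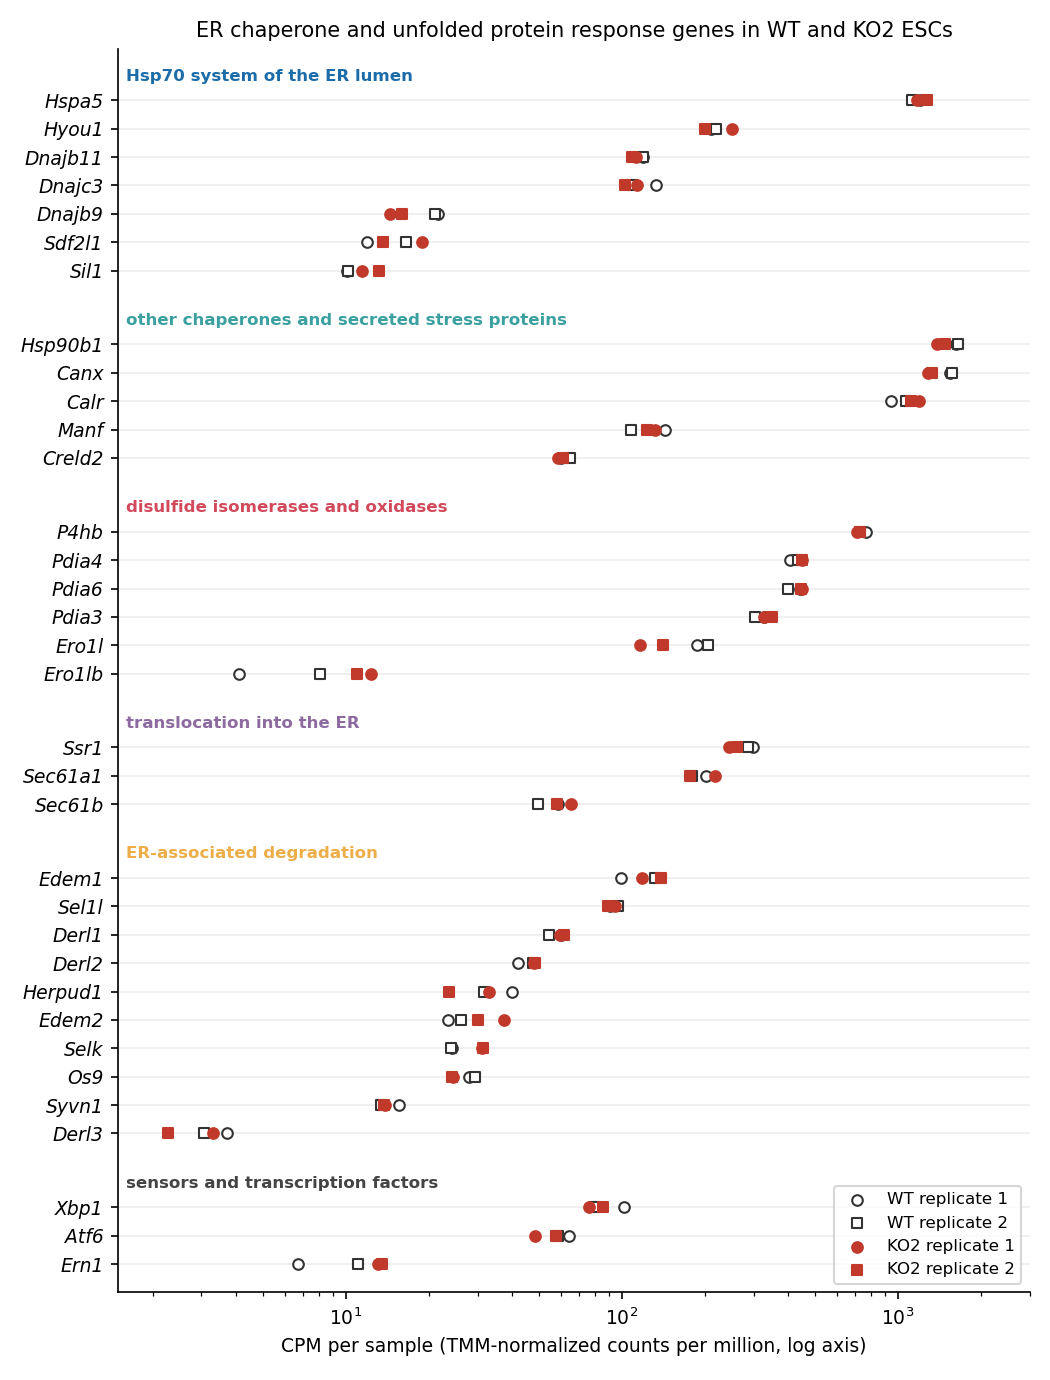
TMM-normalized CPM (log axis) of the 34 ER genes in each sample, grouped by role, with WT open, KO2 filled, replicate 1 as circles and replicate 2 as squares. The 4 symbols of a gene lie close together for most genes. For *Ero1l*, the 1 called gene, both KO2 samples (116 and 141 CPM) lie to the left of both WT samples (186 and 205 CPM). *Ero1lb*, which was not called, separates the other way (4.10 and 8.03 CPM in WT, 12.3 and 11.0 CPM in KO2).

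At the median, the ER genes were more highly expressed than all tested genes and had narrower intervals. Some members were not highly expressed, such as *Derl3* at 3.09 CPM in the mean of the 4 samples. The median CPM over the 4 samples was 89.0 for the ER genes and 22.5 for all tested genes, and the median half-width of the 95% interval of the log2 fold change was 0.32 and 0.54. For 29 of the 34 genes the interval lay within a 2-fold change in either direction (85.3%, compared to 56.4% of all tested genes). For 22 it lay within a 1.5-fold change (64.7%, compared to 30.5%). These shares also depend on the estimates, which lay within 1.5-fold for 94.1% of the ER genes and 77.3% of all tested genes. Of the 5 genes whose interval reached past 2-fold, *Dnajb9*, *Sil1*, *Ern1*, *Ero1lb* and *Derl3*, the highest had 18.3 CPM in the mean of the 4 samples.

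**Figure D2:**
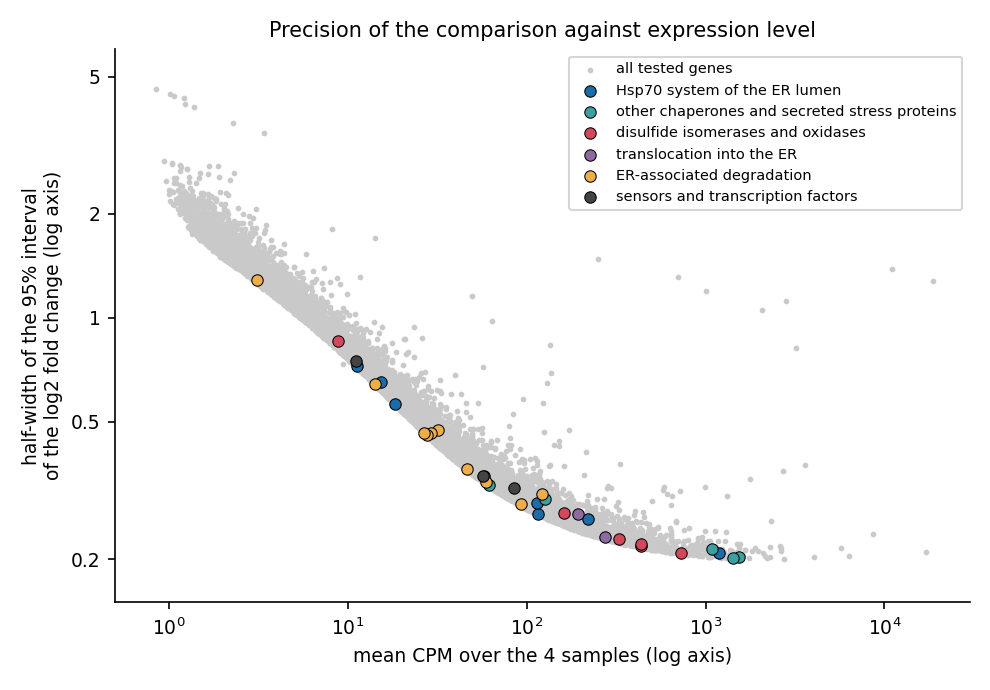
Half-width of the 95% interval of the log2 fold change (edgeR, log axis) against mean CPM over the 4 samples (log axis) for all 12883 tested genes (grey) and the 34 ER genes (coloured by role). The abundant chaperones sit near a half-width of 0.20, and *Derl3*, the ER gene with the fewest counts, at 1.29.

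Of the Hsp70 system of the ER lumen, none of the 7 genes was called (edgeR, compared to 5.64% of all tested genes), and their median log2 fold change was 0.07. At an unadjusted p under 0.05, 0 passed in edgeR and DESeq2, compared to 19.4% of all tested genes in edgeR. With 3 to 10 genes per role, 0 calls do not set a role apart from all tested genes. *Hspa5* (ENSMUSG00000026864, chromosome 2, 34627490 to 34632051, plus strand, mm9) encodes BiP, the central chaperone of the lumen, which also holds the 3 stress sensors inactive. It had 1197 and 1128 CPM in WT and 1173 and 1273 CPM in KO2. The means were 1162 ± 48.8 and 1223 ± 70.2 CPM (SD, n = 2). The groups overlapped, and the log2 fold change was 0.07 (standard error 0.10, adjusted p = 0.752, edgeR), with a 95% interval from 0.911- to 1.22-fold. *Hspa5* is the gene most used to read the unfolded protein response, and a rise of more than 1.22-fold lies outside this interval, which holds for the main fit with TMM. Over the alternatives its log2 fold change ran from 0.01, without KO2 replicate 2, to 0.18, with ERCC spike-in scaling.

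*Hyou1*, a large Hsp70-type chaperone that also exchanges nucleotide on BiP, had 210 and 220 CPM in WT and 250 and 200 CPM in KO2, with the KO2 replicates on both sides of WT. *Sil1*, the other nucleotide exchange factor, had 10.1 and 10.2 CPM in WT and 11.4 and 13.2 CPM in KO2, both higher, from 27 to 99 counts (log2 fold change 0.28, standard error 0.35, adjusted p = 0.724, edgeR). The J-proteins deliver clients to BiP and start its ATP cycle. *Dnajb9* (ERdj4) had 21.6 and 21.0 CPM in WT and 14.5 and 16.04 CPM in KO2, both lower, without passing the test (log2 fold change -0.48, standard error 0.27, adjusted p = 0.344, edgeR). *Dnajb11* (ERdj3) had 120 and 119 CPM in WT and 113 and 109 CPM in KO2, also both lower, at a log2 fold change of -0.11. *Dnajc3* (P58IPK) overlapped between the groups, at 133 and 109 CPM compared to 113 and 103 CPM. *Sdf2l1*, a partner of *Dnajb11*, had 11.9 and 16.5 CPM in WT and 18.9 and 13.6 CPM in KO2, so that its replicates differed more than its groups.

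Of the other chaperones and stress proteins, none of the 5 genes was called, in edgeR (compared to 5.64% of all tested genes) or in DESeq2. At an unadjusted p under 0.05, edgeR had 0 higher and 1 lower (20%, compared to 19.4% of all tested genes). DESeq2 had 1 higher and 2 lower at that threshold. In the WT mean, *Hsp90b1*, *Canx* and *Calr* had the highest levels per length of all 34 genes. They stood at 406, 372 and 350 CPM per kb of exon, ahead of *Hspa5* at 331. This order did not hold in every sample, since in WT replicate 1 *Hspa5* (341) lay above *Calr* (329). In the KO2 mean *Calr* was at 401, *Hsp90b1* at 355, *Hspa5* at 348 and *Canx* at 312 CPM per kb. *Canx* (ENSMUSG00000020368, chromosome 11, 50107969 to 50139175, minus strand, mm9) encodes calnexin, the membrane-bound lectin chaperone that holds glycoproteins during folding. It had 1546 and 1567 CPM in WT and 1287 and 1328 CPM in KO2, both lower (log2 fold change -0.25, standard error 0.10, unadjusted p = 0.0171, adjusted p = 0.148, edgeR). The adjusted p of *Canx* was 0.055 with DESeq2 and ranged up to 1.0 over the alternatives, and none passed the threshold.

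*Hsp90b1* (ENSMUSG00000020048, chromosome 10, 86152954 to 86168254, minus strand, mm9) encodes GRP94, the Hsp90 of the ER. Of its exon bases, 10.3% lie opposite those of *1810014B01Rik*. On the same strand, it shares 3.3% with AC152453.1, at 0 counts in each library, and 2.08% with *Gm15344*, at 2 to 15 counts. *Hsp90b1* had 1624 and 1648 CPM in WT and 1384 and 1482 CPM in KO2, both lower (log2 fold change -0.19, standard error 0.10, adjusted p = 0.292, edgeR). *Calr*, calreticulin, the soluble counterpart of calnexin, went the other way without passing the test, from 946 and 1070 to 1193 and 1115 CPM (log2 fold change 0.19, standard error 0.10, adjusted p = 0.309, edgeR). The 95% intervals left 0.761- to 1.01-fold for *Hsp90b1*, 0.73- to 0.966-fold for *Canx* and 0.986- to 1.33-fold for *Calr*. *Manf* and *Creld2*, secreted proteins that serve as markers of ER stress, did not separate the groups. *Manf*, 4.14% of whose exon bases lie opposite those of *Vprbp*, had 143 and 108 CPM in WT and 132 and 123 CPM in KO2, and *Creld2* had 60.0 and 65.0 CPM in WT and 58.8 and 61.0 CPM in KO2.

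Among the 6 disulfide isomerases and oxidases, 1 was called (16.7%, from a single gene, compared to 5.64% of all tested genes). *Ero1l* (ENSMUSG00000021831, chromosome 14, 45902879 to 45938237, minus strand, mm9) encodes ERO1α, the oxidase that reoxidizes protein disulfide isomerase and passes the electrons to oxygen, and is known as a hypoxia-induced gene. From 500 and 868 counts, its level in WT was 186 and 205 CPM, and from 916 and 1054 counts, its level in KO2 was 116 and 141 CPM. Both KO2 samples were thus lower than both WT samples, at 129 ± 17.5 compared to 196 ± 13.3 CPM (SD, n = 2), which is 0.656-fold (95% interval 0.543 to 0.792). The log2 fold change was -0.61 (standard error 0.13, adjusted p = 0.00803, edgeR). The call was lost without WT replicate 2 (-0.54, adjusted p = 0.0804), without KO2 replicate 1 (-0.47, adjusted p = 0.0936), with ERCC spike-in scaling (-0.51, adjusted p = 0.801) and without the filter on low counts (-0.58, adjusted p = 0.216, all edgeR). *Ero1l* stayed below WT in each of these fits.

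*Ero1lb* encodes ERO1β, the second oxidase of the family, which is most abundant in secretory cells such as those of the pancreas. WT had 4.10 and 8.03 CPM, from 11 and 34 counts, and KO2 had 12.3 and 11.0 CPM, from 97 and 82 counts. Both KO2 samples were higher, but WT replicate 1 and replicate 2 themselves differed widely, and the change did not pass the test (log2 fold change 0.86, standard error 0.41, adjusted p = 0.26, edgeR). Without WT replicate 1 the log2 fold change was 0.53 and without WT replicate 2 it was 1.501, at adjusted p of 0.527 and 0.149 (edgeR). Per kb of exon, *Ero1lb* stood at 1.43 and 2.75 CPM in WT and KO2, compared to 45.6 and 29.95 for *Ero1l*, so *Ero1l* remained the more abundant oxidase in both groups. Whether the 2 oxidases changed differently was not tested.

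The disulfide isomerases had narrow intervals around no change. *P4hb* (PDI) had 768 and 726 CPM in WT and 709 and 729 CPM in KO2, and *Pdia3* (ERp57), which works with calnexin and calreticulin on glycoproteins, had 327 and 305 CPM in WT and 327 and 351 CPM in KO2. For *Pdia4* (ERp72) the values were 405 and 434 compared to 449 and 450 CPM, and for *Pdia6* (P5) they were 441 and 399 compared to 450 and 445 CPM. The last 3 lay above both WT samples in both KO2 samples, but by little, with log2 fold changes of 0.09 to 0.10 and upper interval bounds of 1.24- to 1.26-fold. The interval of *P4hb* ran from 0.833- to 1.11-fold.

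**Figure D3:**
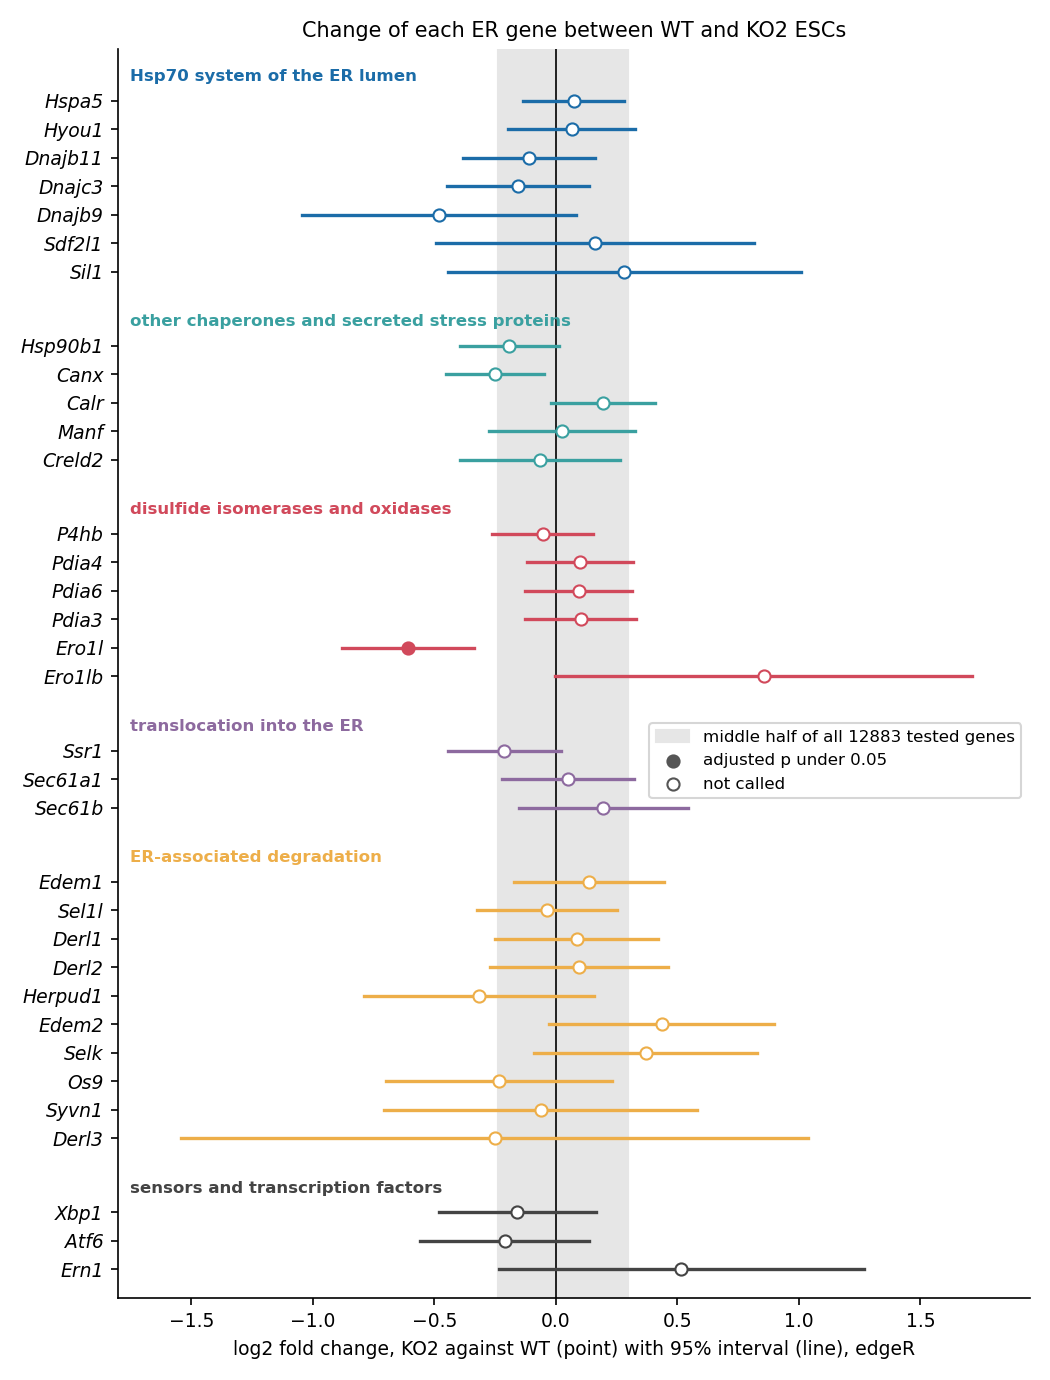
Log2 fold change of KO2 against WT for each of the 34 ER genes (points) with its 95% interval (lines), grouped by role, where filled points passed an adjusted p under 0.05 (edgeR) and the grey band is the interquartile range of all 12883 tested genes. *Ero1l* at -0.61 is the single filled point, and the wide intervals belong to genes with few counts such as *Derl3* and *Ero1lb*.

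None of the 3 genes for entry into the ER was called (edgeR and DESeq2), compared to 5.64% of all tested genes in edgeR. At an unadjusted p under 0.05, 0 passed in either, compared to 19.4% of all tested genes in edgeR. *Ssr1*, a subunit of the translocon-associated TRAP complex, had 298 and 287 CPM in WT and 244 and 261 CPM in KO2, both lower (log2 fold change -0.21, standard error 0.11, adjusted p = 0.306, edgeR). *Sec61a1*, the pore of the translocon, had 202 and 179 CPM in WT and 217 and 176 CPM in KO2, and *Sec61b*, its β subunit, had 58.5 and 49.9 CPM compared to 65.2 and 58.1 CPM. The groups overlapped for both Sec61 subunits.

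None of the 10 genes of ER-associated degradation was called, compared to 5.64% of all tested genes in edgeR. None of the 10 reached an unadjusted p under 0.05 in edgeR, where 19.4% of all tested genes did, or in DESeq2. Their median log2 fold change was 0.03, from -0.32 for *Herpud1* to 0.44 for *Edem2*. *Edem2*, which starts the trimming of mannose from glycoproteins bound for degradation, had the lowest p among them, at 23.5 and 26.2 CPM in WT and 37.4 and 30.2 CPM in KO2. Both KO2 samples were higher (log2 fold change 0.44, standard error 0.22, adjusted p = 0.293, edgeR). Its relative *Edem1* overlapped between the groups, at 99.5 and 132 CPM in WT and 118 and 138 CPM in KO2.

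*Herpud1*, a scaffold of the degradation complex that ER stress strongly induces and whose promoter held both ERSE-II and the ATF4 core, had 39.9 and 31.7 CPM in WT and 33.1 and 23.7 CPM in KO2. The replicates of each group differed by about as much as the groups. The ubiquitin ligase of the complex, *Syvn1* (HRD1), had 15.7 and 13.5 CPM in WT and 13.8 and 13.8 CPM in KO2, and its partner *Sel1l* had 90.6 and 96.6 CPM in WT and 94.2 and 88.8 CPM in KO2. Neither separated the groups, at log2 fold changes of -0.06 and -0.04. The lectin *Os9*, which brings glycoproteins to *Sel1l*, had 27.95 and 29.3 CPM in WT and 24.5 and 24.3 CPM in KO2, both lower, at an adjusted p of 0.627 (edgeR).

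The derlins are membrane proteins of the retrotranslocation channel. *Derl1* had 60.4 and 54.3 CPM in WT and 59.6 and 61.8 CPM in KO2, and *Derl2* had 42.1 and 47.7 CPM in WT and 48.2 and 48.3 CPM in KO2, where the groups overlapped for *Derl1* and both KO2 samples were slightly higher for *Derl2*. *Derl3* had 10, 13, 26 and 17 counts in the 4 libraries, and its interval, from 0.344- to 2.05-fold, spans more than a 2-fold change in either direction. *Selk*, a selenoprotein that binds the derlins, had 24.2 and 24.1 CPM in WT and 31.2 and 31.3 CPM in KO2. Its replicates were close, both KO2 samples were higher, and the change did not pass the test (log2 fold change 0.37, standard error 0.22, adjusted p = 0.378, edgeR).

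The sensors and the transcription factors behind these genes were not called either (0 of 3, edgeR and DESeq2), compared to 5.64% of all tested genes in edgeR. At an unadjusted p under 0.05, 0 of the 3 passed with either tool, compared to 19.4% of all tested genes in edgeR. *Xbp1* (ENSMUSG00000020484, chromosome 11, 5420662 to 5425896, plus strand, mm9) encodes the factor that is active once IRE1 has spliced its RNA. It had 101 and 79.4 CPM in WT and 75.7 and 85.3 CPM in KO2, which overlapped (log2 fold change -0.16, standard error 0.15, adjusted p = 0.636, edgeR). A count per gene pools spliced and unspliced *Xbp1* RNA, so the activity of IRE1 could not be read from these data. *Ern1*, which encodes IRE1α, had 6.71 and 11.1 CPM in WT and 13.1 and 13.5 CPM in KO2, both higher, from 18 and 47 compared to 103 and 101 counts (log2 fold change 0.52, standard error 0.36, adjusted p = 0.474, edgeR). *Atf6* (ENSMUSG00000026663, chromosome 1, 172634588 to 172797902, minus strand, mm9), whose protein is cut in the Golgi to release a transcription factor, had 64.5 and 58.6 CPM in WT and 48.4 and 57.6 CPM in KO2. Both KO2 samples were lower (log2 fold change -0.21, standard error 0.17, adjusted p = 0.54, edgeR).

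Changes were also set beside the ERSE. The 10 genes with the element had a median log2 fold change of -0.06, from -0.25 to 0.86, compared to 0.03 for the 18 genes with a window but no match, and 0 of the 10 were called, where 5.64% of all tested genes were. The 18 genes include *Dnajb11* and *Herpud1*, which hold ERSE-II. The difference between genes with and without the element was not tested. Those at the upper end, *Ero1lb* at 0.86, and at the lower end, *Derl3* and *Canx* at -0.25 each, differ in depth, with *Derl3* and *Ero1lb* on 10 to 97 counts per library.

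**Figure D4:**
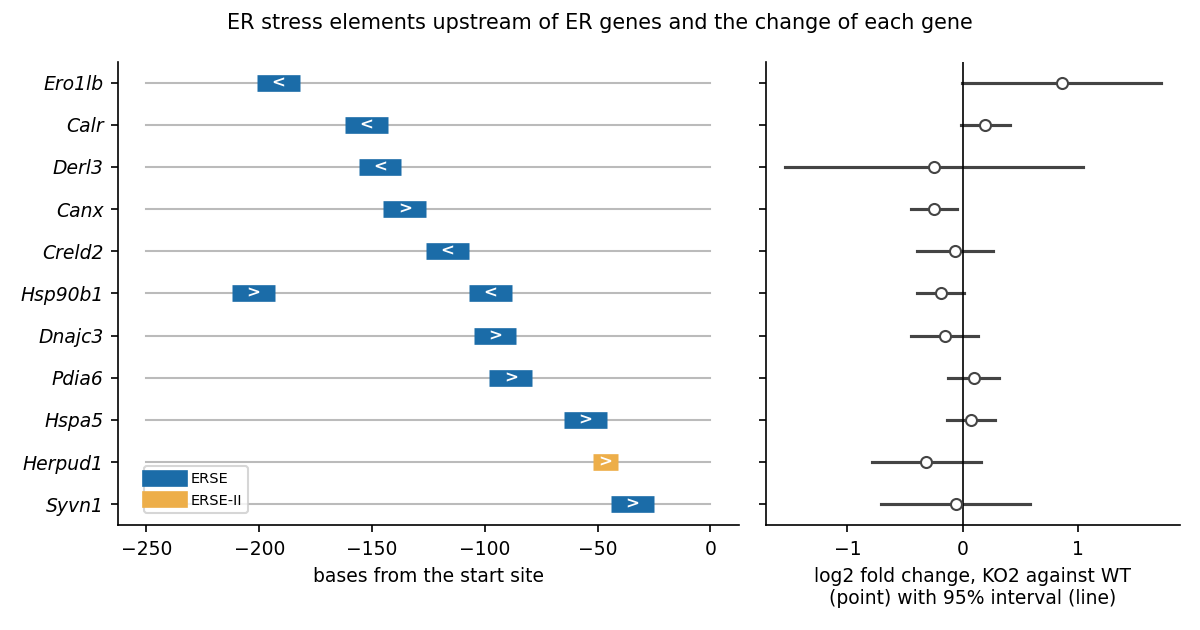
Left, place and direction (> with the gene, < against it) of ERSE (blue) and ERSE-II (orange) matches in the 250 bases before the start site of 11 ER genes, and right, the log2 fold change of KO2 against WT of each gene (point) with its 95% interval (line). Points lie on both sides of 0, and none of the 11 genes passed the test. Whether the change goes with the place of the element was not tested.

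Further genes of the pathway were read from 6 lists. The PERK and ATF4 branch, the arm that the 34 genes leave out, had 3 of 18 genes called (16.7%, compared to 5.64% of all tested genes), all lower in KO2, and its median log2 fold change was -0.19. The list was chosen with earlier results of these data known, so its share of calls is not independent evidence, and 1 call was left with ERCC scaling, without the filter on low counts or without WT replicate 1. At an unadjusted p under 0.05, 0 genes were higher and 5 lower in edgeR (27.8%, compared to 19.4% of all tested genes), and 0 and 4 in DESeq2. *Asns*, asparagine synthetase, a target of ATF4 in the amino acid response, had 1241 and 1232 CPM in WT and 828 and 752 CPM in KO2 (log2 fold change -0.65, standard error 0.10, adjusted p = 0.000536, edgeR). *Atf4* itself had 436 and 332 CPM in WT and 273 and 270 CPM in KO2 (log2 fold change -0.50, standard error 0.12, adjusted p = 0.0239, edgeR), a call that was lost without WT replicate 1 (-0.29). *Vldlr*, a lipoprotein receptor, fell from 11.6 and 12.8 to 3.04 and 3.34 CPM (log2 fold change -1.93, standard error 0.43, adjusted p = 0.0114, edgeR), and lost its call without WT replicate 1 (-1.99) and without WT replicate 2 (-1.85).

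The other 15 genes of this branch were not called. *Stc2*, a secreted glycoprotein, had 10.8 and 6.14 CPM in WT and 3.42 and 0.401 CPM in KO2 (log2 fold change -2.04, standard error 0.65, adjusted p = 0.0736, edgeR). *Ddit4* (REDD1), an inhibitor of mTORC1, had 28.7 and 21.98 CPM in WT and 15.5 and 15.9 CPM in KO2 (log2 fold change -0.67, standard error 0.26, adjusted p = 0.159, edgeR). Both KO2 samples were lower for these genes. *Ddit3* (CHOP), the factor tied to cell death under ER stress, had 32, 42, 101 and 89 counts in WT replicates 1 and 2 and KO2 replicates 1 and 2 and was not called (log2 fold change 0.20, standard error 0.34, adjusted p = 0.82, edgeR). *Trib3* and *Chac1*, targets of ATF4 and CHOP, had log2 fold changes of -0.22 and -0.19, at adjusted p of 0.736 and 0.873 (edgeR). *Ppp1r15a* (GADD34), which restores translation, had 0.28, and *Eif2ak3*, the gene of PERK, had 0.60, at adjusted p of 0.579 and 0.276 (edgeR). These 7 genes were picked after their values had been seen, *Stc2* and *Ddit4* for the lowest p among the uncalled genes and the others as well known readouts of the branch.

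Of 40 other folding enzymes and chaperones, 37 were tested and 3 were called (8.11%, compared to 5.64% of all tested genes), 1 higher and 2 lower. *Clgn*, calmegin, a relative of calnexin best known from male germ cells, had 59.6 and 59.3 CPM in WT and 27.8 and 28.2 CPM in KO2 (log2 fold change -1.09, standard error 0.18, adjusted p = 0.000939, edgeR). *Tmx1*, a thioredoxin-like transmembrane oxidoreductase, had 179 and 156 CPM in WT and 88.5 and 95.2 CPM in KO2 (log2 fold change -0.87, standard error 0.13, adjusted p = 0.000429, edgeR). *Txndc11*, another thioredoxin-domain protein, rose from 21.6 and 21.0 to 38.8 and 37.0 CPM (log2 fold change 0.83, standard error 0.22, adjusted p = 0.0289, edgeR), and lost its call without WT replicate 1 (0.85), without WT replicate 2 (0.81) and without KO2 replicate 1 (0.80).

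Of 21 genes for N-glycosylation and glycan quality control, 1 was called (4.76%, compared to 5.64% of all tested genes). This was *Uggt2*, a relative of the folding sensor UGGT1, at 8.57 and 7.09 CPM in WT and 17.4 and 24.3 CPM in KO2 (log2 fold change 1.43, standard error 0.34, adjusted p = 0.0175, edgeR). It lost its call without either WT replicate (1.55 and 1.28) and without KO2 replicate 2 (1.17). Of 22 other degradation factors, 1 was called (4.55%, compared to the same 5.64%). This was *Fam8a1*, a cofactor of the HRD1 complex, at 109 and 128 CPM in WT and 78.6 and 86.5 CPM in KO2 (log2 fold change -0.53, standard error 0.14, adjusted p = 0.033, edgeR). It lost its call without WT replicate 1 (-0.63), without WT replicate 2 (-0.40) and without KO2 replicate 1 (-0.46).

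The remaining lists had no call with edgeR, where 5.64% of all tested genes were called, or with DESeq2. Of 17 further sensors, ATF6-type factors and their partners, 14 were tested. At an unadjusted p under 0.05, 1 was higher and 4 were lower in edgeR (35.7%, compared to 19.4% of all tested genes), and 0 and 4 in DESeq2. Of 19 further translocon and signal peptide processing subunits, all were tested. At that threshold, 2 were higher and 0 lower in edgeR (10.5%, compared to the same 19.4%), and 1 and 0 in DESeq2. Their medians were -0.20 and 0.02 on the log2 scale.

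**Figure D5:**
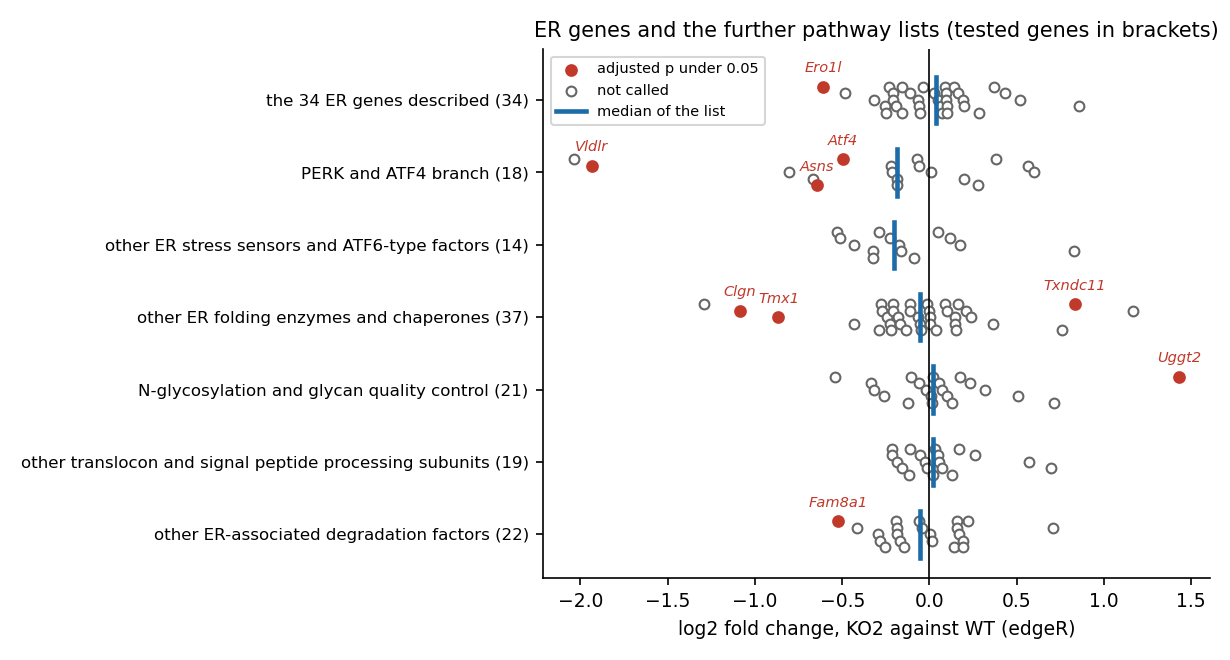
Log2 fold change of KO2 against WT (edgeR) of each tested gene in the 34 ER genes and in the 6 further lists, with the median of each list as a blue bar and called genes in red. The 34 ER genes centre on 0.04 with *Ero1l* as the single call, and the 3 calls of the PERK and ATF4 branch, *Vldlr*, *Asns* and *Atf4*, lie below 0.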

How the data were processed

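Per the labels and the methods of the study, total RNA of WT and KO2 ESCs was depleted of ribosomal RNA, strand-specific libraries were made, and HISAT2 mapped the reads to mm9, and HTSeq counted them over genes. The authors deposited raw counts per gene, without normalization, in 1 table per replicate; versions, annotation and strand setting are not given in the sources used here. Gene identifiers run past those of the mm9 annotation used here (32782 of 48526 had an entry), so the counting annotation was a later one. HTSeq's summary rows were left out: 35.6% to 40.4% of all rows' counts were not unique, 15.2% to 18.2% outside genes and 2.08% to 4.06% ambiguous. ERCC rows (0.0695% to 0.094% of the counts on genes) were used in 1 alternative.

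Genes were kept by filterByExpr (minimum count 10, total 15), normalized with TMM and tested in edgeR 4.0.16 (R 4.3.3, limma 3.58.1) with glmQLFit (legacy=FALSE) and glmQLFTest, with group as the only term, and the fit was tested on simulated data. A count of 3 equals 1.12, 0.709, 0.38 and 0.401 CPM in WT replicates 1 and 2 and KO2 replicates 1 and 2. Standard errors and 95% intervals follow from the test's F statistic. Symbols, positions and exon lengths are those of GENCODE vM1 (NCBIM37). Alternatives were RLE, ERCC scaling, TMM without Y-linked, mitochondrial and short genes, other filters, DESeq2 1.42.0, the older quasi-likelihood method, a replicate block, thinning to 2829914 counts and leaving out each replicate. The members and lists were chosen with earlier results of these data known. By rule, full values were given for called members, the next 5 by adjusted p, *Hspa5*, *Hsp90b1*, *Xbp1*, *Atf6* and *Ern1*, and called genes of the further lists. Of the lists' symbols, *Srp54a* was not matched, and *Fam8a1*, *Vimp* and the ESC marker *Tfcp2l1* were matched through RefSeq synonyms.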

Additional observations from a re-analysis of the deposited data

How the results depend on the processing

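The call of *Ero1l* was the 1 call among the ER genes, and it held with RLE, with TMM without Y-linked, mitochondrial and short genes, with at least 10 counts in every sample, with DESeq2, with the older quasi-likelihood method, after thinning and with the replicate block. With ERCC spike-in scaling and without a filter on low counts, 0 ER genes were called, where 1.27% and 0.24% of all genes were, and leaving out 1 replicate gave 0 to 1. No ER gene was called higher in any of these fits. The median log2 fold change of the 34 genes was 0.13 with ERCC scaling, where that of all tested genes was 0.09 compared to 0.01 with TMM, and -0.047 to 0.017 with 1 replicate left out. The spike-ins took 0.0889% and 0.0732% of the counts on genes in WT and 0.094% and 0.0695% in KO2, a spread within each group that ERCC scaling carries into every gene. Uncalled changes near 0 turned sign with ERCC scaling, to 0.048 for *P4hb*, 0.015 for *Creld2*, 0.043 for *Sel1l* and 0.011 for *Syvn1*. With 1 replicate left out, where the lone sample is assumed to vary like the other group, uncalled log2 fold changes of 8 genes turned sign, with ranges of -0.098 to 0.21 for *Hyou1*, -0.099 to 0.449 for *Sdf2l1*, -0.172 to 0.238 for *Manf*, -0.079 to 0.015 for *Sel1l*, -0.182 to 0.034 for *Syvn1*, -0.044 to 0.367 for *Edem1*, -0.333 to 0.020 for *Xbp1* and -0.102 to 0.190 for *Sec61a1*.

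Over all genes, 727 calls became 163 with ERCC scaling, 61 without a filter, 454 with DESeq2 and 270 to 691 with 1 replicate left out. In the further lists, ERCC scaling left 1 call in the PERK and ATF4 branch and 0 in the others, as did the fit without a filter, and leaving out 1 replicate gave 1 to 4 calls in that branch, 2 to 3 among other folding enzymes, 0 to 1 for N-glycosylation, 0 to 1 for the translocon and 0 to 1 for degradation. The degradation list also had 0 calls with DESeq2 and after thinning, and the translocon list 1 call with at least 10 counts in every sample and with the replicate block. Replicates are numbered 1 and 2 in each group, but same-numbered samples did not deviate together (Pearson's r = -0.0166 over 12883 genes). The numbers were therefore not used as pairs in the main fit, although 1 correlation over all genes cannot show that no pairing exists. With the replicate block, 950 genes and 1 ER gene were called. The cause of these differences was not tested.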
